A study of Homo sapiens with 35 samples.

Results

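The nuclear genes that encode the subunits of the mitochondrial respiratory chain were followed over the 10 days after a pulse of carfilzomib. Members were the protein-coding entries of the count table whose symbols began with NDUFA, NDUFB, NDUFC, NDUFS or NDUFV and a digit, with UQCR, with COX4 to COX8 or with ATP5, together with NDUFAB1, SDHA, SDHB, SDHC, SDHD and CYC1. Of 90 entries with such names, 86 had at least 50 counts in total over the 35 libraries and were kept, out of 17999 protein-coding entries with any count. They comprised 37 subunits of complex I, 4 of complex II, 9 of complex III, 15 of complex IV and 15 of complex V. The remaining 6 matched by name only and are described apart. COX8C with 72 counts and the readthrough entry NDUFC2-KCTD14 with 98 lay just inside the minimum. ATP5L2 with 25 counts and COX7A1 with 16 lay just outside it, and COX4I2 and COX6A2 had no counts.

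Complex I passes electrons from NADH to ubiquinone and complex II passes them from succinate. Complex III hands them on to cytochrome c and complex IV reduces oxygen, while complexes I, III and IV pump protons that complex V, the ATP synthase, uses to make ATP. Complex II is encoded by the nucleus alone, and the other complexes combine nuclear subunits with others that mitochondrial DNA encodes, so that these are put together from products of both genomes. Plasma cells and myeloma cells draw on mitochondria for energy and for the building blocks of antibody synthesis.

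RPMI-8226 is an established human cell line from multiple myeloma, a tumour of plasma cells. Carfilzomib inhibits the proteasome irreversibly and is used to treat this disease. Cells received 750 nM carfilzomib for 1 h, were washed and were then grown without the drug. RNA of 5 subcultures was sequenced on each of days 0, 1, 2, 4, 6, 8 and 10. The labels give the carfilzomib pulse for the day 0 libraries too, whereas the study's methods state that day 0 cells were collected before the drug was added. Day 0 is treated here as the untreated baseline. No untreated culture was carried alongside to later days, so that time in culture and recovery from the drug cannot be told apart. The medium was renewed at regular intervals and the cell density was reset on days 6 and 8. According to the methods the subcultures were split from a single expanded culture, and p-values therefore measure only the spread between subcultures and libraries, which may be technical. Cells that died were not measured separately, and fewer cells of a type and less RNA per cell cannot be told apart in bulk RNA.

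The libraries held between 6519392 and 10962890 counts. The 8 plasma cell markers examined were all detected on every day. Their summed level ranged from 1308 to 1455 CPM, counts scaled to a common library size, on day 1 and from 1880 to 2343 CPM on the other days. Of the 10 markers of other cell types, HBB, LYZ and ALB stayed at or below 0.463 CPM in every library, and EPCAM, a gene of epithelial cells, supplied most of their summed level. That sum was 62.7 to 87.3 CPM on day 0, 82.3 to 93.4 CPM on day 1 and 85.0 to 99.5 CPM on day 2. From day 4 to day 10 it was 92.7 to 115 CPM, above every day 0 library. The B cell gene MS4A1 reached 13.3 CPM. The part of these markers in the results below was not tested.

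Subunit transcripts took a larger share of the protein-coding counts after the pulse than before it. The 86 members together held 0.754% ± 0.031 (SD, n = 5) of all protein-coding counts on day 0 and 1.06% ± 0.035 on day 1. The share was highest on day 2, at 1.22% ± 0.035, and stood at 0.927% ± 0.025 on day 10. Every library of days 1 to 10 lay above every library of day 0, whose highest value was 0.777%. These shares use unscaled counts, whose total includes the transcripts of mitochondrial DNA, which fell. Without scaling factors the median log2 change of the 12301 entries with enough counts was 0.12 on day 1 and 0.13 on day 2. The part of this in the members' share was not tested.

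Most of the members rose, and more of them rose on day 2 than on any other day tested. On day 1, 59 of the 86 members were higher than on day 0 at an adjusted p of 0.05 or less in edgeR's quasi-likelihood test, and 14 were lower. Among all 17999 entries tested, 25.4% were higher and 27.3% lower in that comparison. On day 2, 67 members were higher and 6 lower, against 23.2% and 24.4% of all entries, and the 6 became 3 without day 2 replicate 4 or without scaling factors. On day 4, 57 were higher and 4 lower, against 19.0% and 20.1%. The number fell to 43 higher and 2 lower on day 6, against 17.5% and 17.0%. It was 55 higher and 4 lower on day 8, against 18.2% and 18.6%. On day 10, 37 were still higher and 4 lower, against 16.1% and 15.8%. Of the 12301 entries with enough counts for a stable estimate, 36.1% were higher and 34.8% lower on day 1. The shares were 33.1% and 31.7% on day 2, 27.0% and 27.0% on day 4 and 24.8% and 23.2% on day 6. They were 25.9% and 24.8% on day 8 and 23.1% and 21.6% on day 10. All comparisons with day 0 share its 5 libraries.

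The changes were mostly moderate. The median log2 fold change over the members was 0.46 on day 1, 0.58 on day 2 and 0.18 on day 10. The median of the 12301 entries with enough counts for a stable estimate lay between -0.01 and 0.01 on each of the 6 days. The scaling sets that median near 0, and without scaling factors it was 0.12, 0.13 and 0.07 on days 1, 2 and 10. A change of more than 2-fold that also passed the test was seen in 11 members that rose and 5 that fell on day 1, beside 7.27% and 13.2% of all entries. On day 2, 14 rose and 3 fell by this measure, beside 6.32% and 8.94%. Of the 12301 entries, 1183 rose and 1737 fell past 2-fold on day 1, and 1025 and 1109 on day 2. On day 4 there were 2 members in each direction, beside 4.12% and 5.29%. By day 6 there were 0 in either direction (beside 3.18% and 3.52%), and on day 10 again 0 (beside 2.41% and 3.52%). On day 8, 0 rose and 2 fell, beside 3.6% and 4.58%. For each of these counts of 0 from edgeR, the count at an unadjusted p under 0.05 and the count with DESeq2 were also 0.

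**Figure D1:**
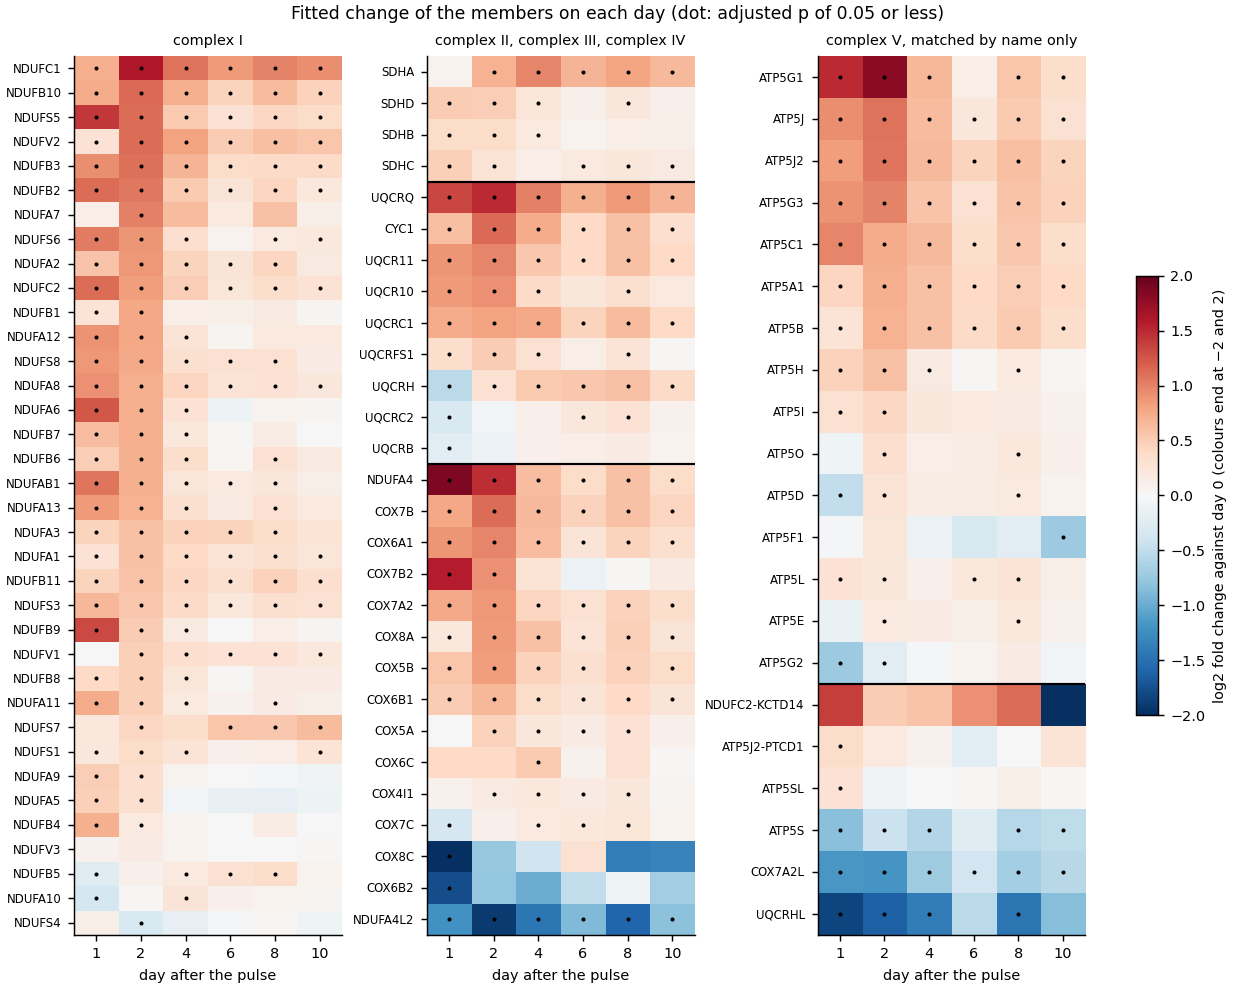
Fitted log2 fold change against day 0 (colour) of the members (rows, grouped by complex and ordered by the day 2 value; 1 member is not shown) on days 1, 2, 4, 6, 8 and 10 (columns). Dots mark an adjusted p of 0.05 or less: most rows are higher on day 2, 6 are lower on that day, and NDUFA4L2 and COX7A2L are the 2 members that are lower on all 6 days. COX8C on day 1 and NDUFC2-KCTD14 on day 10 had no counts, and their colour depends on the prior count of the fit.

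Of the 86 members, 28 were higher on each of the 6 days, 11 of them subunits of complex I. These 28 included the α and β subunits of the ATP synthase (ATP5A1 and ATP5B), cytochrome c1 (CYC1) and NDUFA4. Calls of 3 of the 28 rested on single libraries. COX8A was not called on day 1 without day 0 replicate 3. NDUFB2 was not called on day 10 without day 10 replicate 1. NDUFS3 was not called on day 6 without day 0 replicate 3 or without day 6 replicate 4. A further 24 members, 16 of them in complex I, were higher on days 1 and 2 and no longer called on day 10. Among these 24, the day 2 call for NDUFB4 was lost with filterByExpr, RLE factors and DESeq2. It was also lost without day 0 replicate 1, 2 or 3 or day 2 replicate 1, 2 or 3. The day 1 call for NDUFB1 was lost with DESeq2, without day 0 replicate 2 and without day 1 replicate 1, 2 or 5. NDUFV3, an accessory subunit of complex I, and NDUFC2-KCTD14 were called on no day. Of the 80 subunits of complexes I to V, 57 had their lowest mean on day 0, and 40 had their highest mean on day 2 and 25 on day 1. The shares of all entries with these patterns over days were not determined, and the 6 comparisons share the day 0 libraries.

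**Figure D2:**
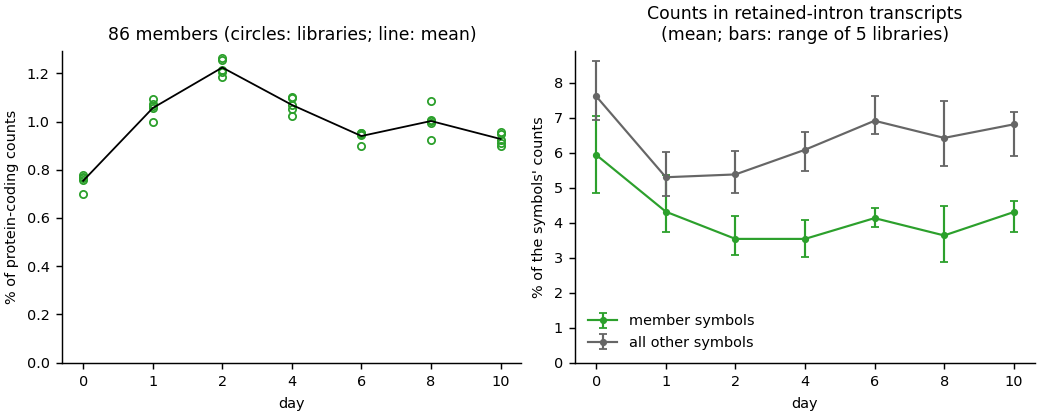
Left, share of all protein-coding counts held by the 86 members in each library (circles, 5 per day, the line joins the means); right, share of the counts of the members' symbols and of all other symbols that the table assigns to retained-intron transcripts (mean, bars from the lowest to the highest of 5 libraries). The members' share rises from 0.754% to 1.22% on day 2, and the retained-intron share falls from 5.94% to 3.54% over the same days. Days are drawn at equal distances.

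In each of the 5 complexes most subunits were higher on day 2, beside 23.2% of all entries. For complex I the median log2 fold change was 0.60 on day 1 and 0.69 on day 2. For complex V it was 0.30 and then 0.59, and for complex IV 0.39 and then 0.66, or 0.50 and 0.84 over its 11 generally expressed subunits. For complex III it was 0.60 and then 0.81, with 0.34 left on day 10. Complex II had 0.42 on both days, the lowest of the 5 medians on day 2. No test was made of these medians, since the members of a complex are not replicates.

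The spread between libraries was described with another measure, the mean over members in each library, whose values differ from the medians above. The mean log2 CPM over the 37 members of complex I, relative to the day 0 mean, reached 0.59 ± 0.07 (SD, n = 5) on day 1. On day 2 it was 0.63 ± 0.08, and the ranges over the 5 libraries of these days overlapped. For the 15 members of complex V the values were 0.36 ± 0.07 and 0.61 ± 0.06, with ranges of 0.26 to 0.45 and 0.54 to 0.68 that did not overlap. The 11 generally expressed members of complex IV reached 0.52 ± 0.07 and then 0.73 ± 0.08, again without overlap. For the 9 members of complex III the values were 0.41 ± 0.08 and 0.66 ± 0.08, also without overlap. The 4 members of complex II reached 0.36 ± 0.09 and 0.45 ± 0.06, and their ranges overlapped. On day 10 the libraries ranged from 0.06 to 0.25 for complex V and from 0.20 to 0.39 for complex III. Replicate 1 of day 8 had the lowest value of its day in all 5 complexes, and replicate 5 of that day the highest.

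**Figure D3:**
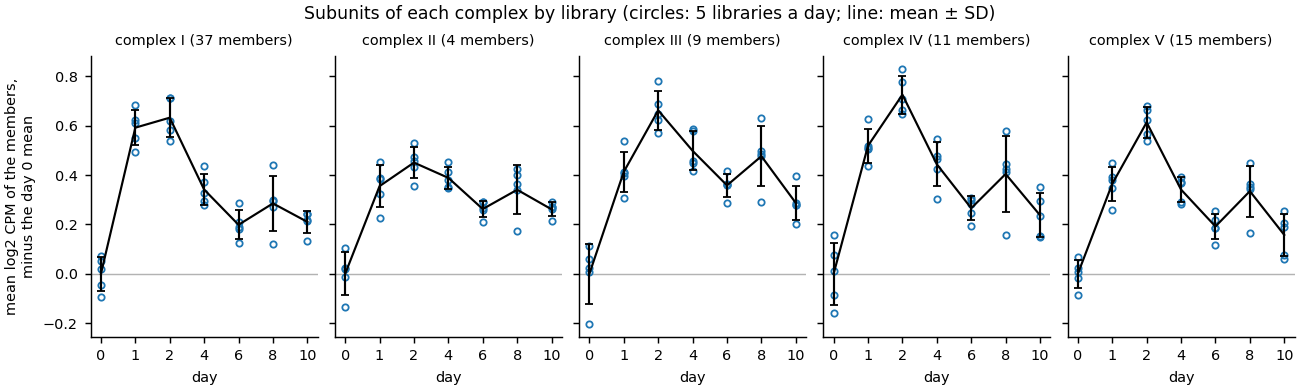
Mean log2 CPM over the members of each complex in every library, minus the mean of the day 0 libraries (circles, 5 per day; the line is the mean and the bars the SD). The 4 tissue-restricted isoforms of complex IV are left out. Complex I reaches 0.59 on day 1 and 0.63 on day 2, while complex V goes from 0.36 to 0.61. Days are drawn at equal distances.

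Of the 37 subunits of complex I, 30 were higher and 2 lower on day 1, and 33 were higher and 1 lower on day 2. All entries gave 25.4% and 27.3% on day 1 and 23.2% and 24.4% on day 2. On day 10, 16 of the 37 subunits were higher and 0 lower in edgeR, beside 16.1% and 15.8% of all entries. On that day 0 were lower at an unadjusted p under 0.05 and 0 in DESeq2. The complex has a matrix arm, which takes up NADH and passes electrons along iron-sulfur clusters, and a membrane arm, which holds the proton channels. Of the 20 nuclear subunits assigned to the membrane arm, 18 were higher on day 1, with a median log2 fold change of 0.71. Of the 16 assigned to the matrix arm, 11 were higher on that day, with a median of 0.48. The medians were 0.70 and 0.51 on day 2 and 0.20 and 0.19 on day 10. The remaining subunit, the acyl carrier protein NDUFAB1, which also serves mitochondrial fatty acid synthesis, was higher by 1.07 ± 0.06 (SE, adjusted p = 3.38e-19) on day 1.

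The largest rise within complex I on day 1 was that of NDUFS5, an accessory subunit of the membrane arm. It stood at 87.5, 84.4, 93.1, 91.0 and 87.6 CPM in the 5 libraries of day 0 and at 221, 236, 231, 252 and 246 CPM on day 1. All libraries of day 1 lay above all of day 0, and the log2 fold change was 1.42 ± 0.06 (SE, adjusted p = 1.14e-22). On day 10 NDUFS5 was at 101, 109, 120.0, 125 and 114 CPM, still above day 0 in every library, with a log2 fold change of 0.36 ± 0.06 (SE, adjusted p = 1.33e-05). NDUFB9, another accessory subunit of the membrane arm, was at 135, 134, 121, 138 and 126 CPM on day 0, at 303, 334, 313, 349.9 and 337 CPM on day 1 and at 190.3, 191, 182, 182 and 187 CPM on day 2. Its rise of 1.32 ± 0.05 (SE, adjusted p = 1.77e-23) on the log2 scale was followed by lower values 1 day later. The direct comparison of day 2 with day 1 gave -0.81 ± 0.05 (SE, adjusted p = 1.28e-16). NDUFA6, an accessory subunit of the matrix arm, moved in the same way, with 1.24 ± 0.08 (SE, adjusted p = 1.21e-16) on day 1 and -0.51 ± 0.08 (SE, adjusted p = 6e-07) from day 1 to day 2.

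NDUFC1, a small accessory subunit of the membrane arm, was highest on day 2 and higher than on day 0 on all 6 days. Its libraries held 11.3, 15.9, 12.9, 11.6 and 21.4 CPM on day 0, 24.4, 23.0, 21.5, 24.5 and 26.2 CPM on day 1 and 47.2, 42.8, 39.7, 41.6 and 48.3 CPM on day 2. Day 2 lay above day 1 in every library and the log2 fold change against day 0 was 1.59 ± 0.13 (SE, adjusted p = 1.14e-13), the highest value in complex I. On day 10 the libraries held 25.2, 30.8, 29.2, 25.2 and 27.7 CPM and the change was 0.93 ± 0.14 (SE, adjusted p = 6.08e-07), the highest of all members called on that day. NDUFV2, which carries an iron-sulfur cluster of the matrix arm, also moved mainly between days 1 and 2, from 0.29 to 1.11 on the log2 scale relative to day 0. NDUFA7, a matrix arm subunit, gave 0.14 (adjusted p = 0.762) on day 1 and 1.00 ± 0.29 (SE, adjusted p = 0.00367) on day 2.

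NDUFV1, which binds NADH and FMN, was at 224, 219, 194, 216 and 251 CPM on day 0 and at 214, 228, 206, 228 and 218 CPM on day 1, which overlapped. The log2 fold change was -0.01 ± 0.06 (SE, adjusted p = 0.941) on day 1 and 0.48 ± 0.06 (SE, adjusted p = 4.49e-09) on day 2. NDUFS1, the largest iron-sulfur subunit, rose by 0.23 ± 0.05 (SE, adjusted p = 0.000345) on day 1 and 0.36 ± 0.05 (SE, adjusted p = 1.54e-07) on day 2. NDUFB8 is an accessory subunit whose protein is often used as a marker of assembled complex I. Its RNA gave 0.40 ± 0.07 (SE, adjusted p = 2.85e-06) and 0.48 ± 0.07 (SE, adjusted p = 5.55e-08). For protein, the study reported lower levels during recovery, most of all for complex I subunits such as NDUFB8. The RNA values here do not give the amount of protein or of assembled complex. NDUFS4 was the only member of complex I called lower on day 2, at -0.31 ± 0.11 (SE, adjusted p = 0.0152), and this call was lost without day 0 replicate 4, without day 2 replicate 4, without scaling factors and with only these 2 days fitted. NDUFA10 and NDUFB5 were lower on day 1, at -0.35 and -0.24, and higher on at least 1 later day.

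All 4 subunits of complex II, which is also succinate dehydrogenase of the citric acid cycle, were higher on day 2, beside 23.2% of all entries. SDHA, the flavoprotein that oxidises succinate, had its highest level on day 4. Its libraries held 171, 174, 154, 166 and 180.0 CPM on day 0 and 165, 185, 179, 184 and 179 CPM on day 1, which overlapped, and the log2 fold change was 0.08 ± 0.05 (SE, adjusted p = 0.239). They held 272, 284, 277, 253 and 278 CPM on day 2, 343, 323, 347, 331 and 321 CPM on day 4 and 242, 273, 266, 261 and 278 CPM on day 10. Every library from day 2 onwards lay above every library of day 0. The log2 fold change was highest on day 4, at 0.98 ± 0.05 (SE, adjusted p = 7.04e-19), and was 0.64 ± 0.05 (SE, adjusted p = 5.06e-13) on day 10. The other 3 subunits rose on day 1 already. SDHB, the iron-sulfur subunit, gave 0.37 ± 0.06 (SE, adjusted p = 3.42e-06) on day 1 and 0.12 (adjusted p = 0.153) on day 10. The membrane anchors gave 0.47 ± 0.06 (SE, adjusted p = 9e-09) for SDHC and 0.50 ± 0.06 (SE, adjusted p = 3.2e-10) for SDHD on day 1. On day 10 SDHC was still called, at 0.17 ± 0.06 (SE, adjusted p = 0.0269), but not without day 0 replicate 3, day 10 replicate 3 or day 10 replicate 4. Entries for SDHA pseudogenes held 7.28% of the counts of SDHA and these pseudogenes together. For NDUFV2 and its pseudogene entry the share was 6.13%. Reads of these genes and their copies may not be told apart.

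In complex III, 6 of the 9 subunits (66.7%) were higher and 3 (33.3%) lower on day 1. All entries gave 25.4% and 27.3%, and the 12301 with enough counts 36.1% and 34.8%, so that the share that fell was near theirs. From day 4 on between 5 and 8 of the 9 were higher on each day, beside 16.1% to 19.0% of all entries. UQCRQ, a small accessory subunit, had the largest rise. It was at 35.3, 35.5, 31.6, 38.3 and 35.6 CPM on day 0, 83.8, 90.7, 84.2, 96.9 and 92.0 CPM on day 1, 100.3, 111, 97.6, 87.3 and 96.9 CPM on day 2 and 49.1, 52.3, 59.4, 62.0 and 57.9 CPM on day 10. No library of the later days overlapped with day 0. The log2 fold changes were 1.34 ± 0.08 (SE, adjusted p = 9.19e-18), 1.49 ± 0.08 (SE, adjusted p = 3.16e-19) and 0.67 ± 0.09 (SE, adjusted p = 2.45e-08) on days 1, 2 and 10. CYC1, the haem protein that reduces cytochrome c, rose by 0.60 ± 0.07 (SE, adjusted p = 8.86e-10) on day 1 and 1.13 ± 0.07 (SE, adjusted p = 1.2e-17) on day 2. The Rieske iron-sulfur protein UQCRFS1 gave 0.36 ± 0.07 (SE, adjusted p = 2.05e-05) and 0.50 ± 0.07 (SE, adjusted p = 2.48e-08), and the core subunit UQCRC1 0.74 ± 0.11 (SE, adjusted p = 1.02e-07) and 0.81 ± 0.10 (SE, adjusted p = 1.39e-08).

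UQCRH, the hinge protein that holds cytochrome c1, first fell and then rose. Its libraries held 579.6, 555, 541, 596 and 561 CPM on day 0 and 349.7, 402, 383, 392 and 416 CPM on day 1, with all of day 1 below all of day 0. They then held 742, 761, 668, 612 and 732 CPM on day 2 and 685, 776, 734, 772 and 721 CPM on day 10, all above day 0. The log2 fold change was -0.54 ± 0.06 (SE, adjusted p = 3.15e-10) on day 1, 0.31 ± 0.06 (SE, adjusted p = 2.62e-05) on day 2 and 0.38 ± 0.06 (SE, adjusted p = 1.98e-06) on day 10. The other members that were lower on day 1 and higher on at least 1 later day were NDUFA10 and NDUFB5 of complex I, the core subunit UQCRC2 of complex III (-0.31 on day 1 and 0.29 on day 8), COX7C of complex IV (-0.34 and 0.25) and ATP5D, the δ subunit of complex V (-0.49 on day 1 and 0.28 on day 2). Without any scaling factors, NDUFB5 and UQCRB were no longer called lower on day 1.

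The generally expressed subunits of complex IV were higher in 9 of 11 cases on day 2 and in all 11 on day 4. Of all entries, 23.2% and 19.0% were higher on these days. The median log2 fold change of the 11 subunits was 0.50 on day 1, 0.84 on day 2 and 0.26 on day 10. COX4I1 and COX5A, which surround the catalytic core that mitochondrial DNA encodes, showed no rise that passed the test on day 1 (0.08, adjusted p = 0.293, and -0.01, adjusted p = 0.911). On day 2 they gave 0.19 ± 0.06 (SE, adjusted p = 0.014) and 0.46 ± 0.06 (SE, adjusted p = 1.01e-08), of which the call for COX4I1 was lost without day 0 replicate 3 or day 2 replicate 2. Its day 4 call was also lost without day 0 replicate 3. COX7B, a small membrane subunit, rose more, by 0.77 ± 0.09 (SE, adjusted p = 5.61e-10) on day 1 and 1.12 ± 0.09 (SE, adjusted p = 9.48e-15) on day 2. COX6C passed the test on day 4, at 0.52 ± 0.19 (SE, adjusted p = 0.0282), and not without day 0 replicate 3, day 4 replicate 3 or day 4 replicate 4. Of the counts under the symbol COX6C, 19.0% were assigned to its protein-coding entry.

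NDUFA4 and NDUFA4L2 moved in opposite directions. NDUFA4 was first described in complex I and is now counted as a subunit of complex IV, and NDUFA4L2 is a related gene that is known to be induced in hypoxia. NDUFA4 stood at 62.0, 61.4, 62.0, 75.4 and 45.2 CPM on day 0 and at 222, 229, 212, 244 and 207 CPM on day 1. This was the largest rise of any member on that day, 1.86 ± 0.07 (SE, adjusted p = 5.14e-24) on the log2 scale, and every library of day 1 lay above every library of day 0. The level was 179.7, 181, 160.4, 170.0 and 162 CPM on day 2 and 75.8, 77.4, 80.9, 82.1 and 78.3 CPM on day 10, with changes of 1.48 ± 0.07 (SE, adjusted p = 1.35e-20) and 0.37 ± 0.08 (SE, adjusted p = 0.00018) against day 0. NDUFA4L2 stood at 15.2, 18.6, 18.4, 19.2 and 19.8 CPM on day 0, 5.73, 8.34, 9.48, 7.55 and 8.45 CPM on day 1, 3.88, 7.18, 4.06, 4.32 and 4.40 CPM on day 2 and 10.9, 10.7, 8.24, 12.2 and 9.30 CPM on day 10. All later libraries lay below all day 0 libraries, also on day 2, where replicate 2 was well above the other 4. The log2 fold change was -1.20 ± 0.17 (SE, adjusted p = 4.87e-08) on day 1, -1.91 ± 0.17 (SE, adjusted p = 1.38e-12) on day 2 and -0.82 ± 0.16 (SE, adjusted p = 7.37e-05) on day 10. On every day from 1 to 10 NDUFA4 was called higher and NDUFA4L2 lower.

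The other 3 isoforms of complex IV that are restricted to certain tissues were read at a low level. COX7B2, a testis isoform, had between 9 and 31 counts per library on day 0 and between 57 and 82 on day 1, without overlap, and a log2 fold change of 1.58 ± 0.19 (SE, adjusted p = 3.43e-09). COX6B2, also of testis, had 10, 8, 7, 3 and 6 counts on day 0 and 2, 4, 1, 1 and 2 counts on day 1, which overlapped, and gave -1.77 ± 0.54 (SE, adjusted p = 0.00528). COX8C had 4, 6, 2, 0 and 3 counts in the 5 libraries of day 0 and 0 counts in each library of day 1. Set against a floor of 3 counts over the day 1 group, the 15 counts of COX8C on day 0 correspond to a 5.28-fold lower level. The counting error of the day 0 counts and the spread between libraries are not allowed for in this value. With COX8C at that value the median of complex IV stays where it is, since COX8C lies below the median in either case.

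In complex V, 10 of the 15 subunits were higher and 2 lower on day 1, and 13 were higher and 1 lower on day 2. All entries gave 25.4% and 27.3% on day 1 and 23.2% and 24.4% on day 2. All 5 subunits of the F1 head and its central stalk were higher on day 2 and on day 8. On day 8, 18.2% of all entries were higher. The day 2 call for ATP5E was lost without day 0 replicate 1 or 5 or day 2 replicate 2 or 3. The day 8 call for ATP5D was lost without day 0 replicate 3 or day 8 replicate 5. The α subunit ATP5A1 was at 460.2, 478, 390.2, 446 and 472 CPM on day 0, 603, 577, 645, 653 and 539 CPM on day 1 and 771, 800.1, 729, 710.4 and 716 CPM on day 2. The catalytic β subunit ATP5B was at 725, 725, 617, 720.5 and 698 CPM, 806, 864, 839.6, 901 and 798 CPM and 1158, 1215, 1119.9, 1046 and 1082 CPM on the same days. Neither gene overlapped with day 0 on any later day. The changes were 0.43 ± 0.06 (SE, adjusted p = 1.39e-07) and 0.27 ± 0.05 (SE, adjusted p = 1.45e-05) on day 1, 0.73 ± 0.06 (SE, adjusted p = 2.15e-13) and 0.69 ± 0.05 (SE, adjusted p = 3.71e-15) on day 2, and 0.40 ± 0.06 (SE, adjusted p = 1.27e-06) and 0.35 ± 0.05 (SE, adjusted p = 4.93e-07) on day 10. Above 2-fold on day 2 were ATP5G1, described below with its relatives, ATP5J of the peripheral stalk (1.08 ± 0.06 SE, adjusted p = 4.3e-18) and ATP5J2 of the membrane part (1.07 ± 0.06 SE, adjusted p = 2.44e-19). ATP5F1, the b subunit of the peripheral stalk, was lower on day 10, at -0.72 ± 0.23 (SE, adjusted p = 0.0132), and its call was lost without day 0 replicate 5 or day 10 replicate 5. Of the counts under this symbol, 10.2% were assigned to the protein-coding entry.

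The 3 genes of the c subunit changed in different directions on day 1. ATP5G1, ATP5G2 and ATP5G3 (now ATP5MC1, ATP5MC2 and ATP5MC3) lie on different chromosomes and encode precursors that differ in their import sequences and give the same mature protein, which forms the rotating ring in the membrane. ATP5G1 was at 55.4, 51.1, 40.0, 51.5 and 50.4 CPM on day 0, 124, 152, 133, 155 and 137 CPM on day 1, 186, 187, 174, 161 and 161 CPM on day 2 and 53.8, 69.3, 59.3, 70.4 and 63.8 CPM on day 10. ATP5G3 was at 110.4, 111, 102, 105 and 103 CPM, 174, 195, 212, 213 and 203 CPM, 225, 221, 215, 196 and 206 CPM and 136, 141, 146, 158 and 149.7 CPM on these days. Both lay above day 0 in every library of days 1 and 2, and on day 10 ATP5G1 overlapped with day 0 whereas ATP5G3 did not. ATP5G2 was at 229.5, 210.1, 199, 239 and 205 CPM on day 0, 129, 135, 121, 146 and 125 CPM on day 1, 194, 217, 192, 158 and 169.6 CPM on day 2 and 208, 224, 204, 213 and 192 CPM on day 10. Its day 1 libraries all lay below those of day 0, and later days overlapped with day 0.

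On the log2 scale ATP5G1 changed by 1.49 ± 0.08 (SE, adjusted p = 2.3e-19) on day 1, 1.80 ± 0.08 (SE, adjusted p = 4.88e-22) on day 2 and 0.35 ± 0.09 (SE, adjusted p = 0.00118) on day 10. The value for day 2 was the highest of all members on that day. ATP5G3 changed by 0.90 ± 0.06 (SE, adjusted p = 1.18e-16), 1.00 ± 0.06 (SE, adjusted p = 5.54e-18) and 0.46 ± 0.06 (SE, adjusted p = 7.48e-08). ATP5G2 was lower on day 1, at -0.72 ± 0.08 (SE, adjusted p = 7.82e-11), and gave -0.22 ± 0.07 (SE, adjusted p = 0.0146) on day 2 and -0.06 (adjusted p = 0.629) on day 10. The day 2 call for ATP5G2 was lost without day 2 replicate 4, without day 2 replicate 5 and without scaling factors, and the day 1 call was kept under every setting run. ATP5G1 and ATP5G2 thus lay on opposite sides of day 0 on day 1, and both differences were larger than the spread between subcultures.

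**Figure D4:**
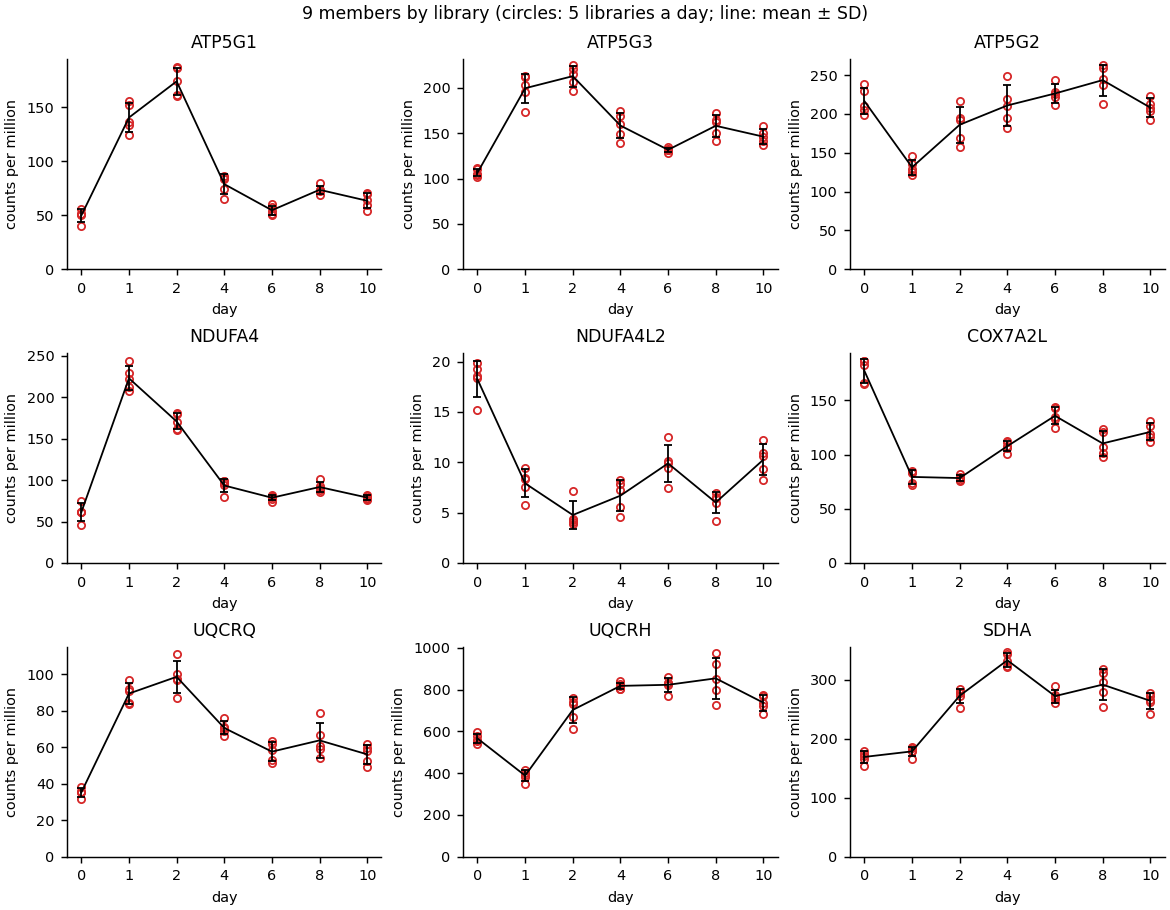
CPM of 9 members in every library (circles, 5 per day; the line is the mean and the bars the SD; each vertical axis starts at 0). ATP5G1 and ATP5G3 rise on days 1 and 2 while ATP5G2 falls on day 1, NDUFA4 rises while NDUFA4L2 falls, COX7A2L stays below day 0, UQCRH falls on day 1 before it rises, and SDHA is highest on day 4. Days are drawn at equal distances.

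Days 1 and 2 were also compared directly. Of the 86 members, 31 were higher on day 2 than on day 1, beside 20.2% of all entries, and 17 were lower, beside 19.4%. In complex I the 2 directions were even, with 11 higher and 11 lower. In complex V, 9 were higher and 1, ATP5C1, was lower. Leading the subunits that were higher on day 2 with counts in every library were NDUFC1 (0.87 ± 0.12 SE, adjusted p = 1.26e-07), NDUFA7 (0.87 ± 0.28 SE, adjusted p = 0.0122), UQCRH (0.86 ± 0.06 SE, adjusted p = 1.71e-15) and NDUFV2 (0.82 ± 0.06 SE, adjusted p = 1.09e-14). Subunits that were lower included NDUFB9, COX7B2, NDUFB4, NDUFA6 and NDUFA4.

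From day 2 to day 10 the direction was nearly uniform. In this comparison 58 members were lower on day 10, beside 18.8% of all entries and 27.0% of those with enough counts. Another 3 members were higher, beside 16.5% and 23.0%. The 3 were NDUFA4L2 (1.09 ± 0.18 SE, adjusted p = 3.17e-06), COX7A2L (0.63 ± 0.06 SE, adjusted p = 3.98e-11) and UQCRB (0.19 ± 0.07 SE, adjusted p = 0.0394), of which the first 2 were lower than on day 0 on both days and UQCRB was called lower than on day 0 on day 1 alone. The call for UQCRB was lost without day 2 replicate 1, 4 or 5, without day 10 replicate 3 or 4, and without scaling factors. The largest declines were those of ATP5G1 (-1.45 ± 0.08 SE, adjusted p = 1.02e-18) and NDUFA4 (-1.11 ± 0.07 SE, adjusted p = 1.93e-16). Complex I had 29 subunits lower and complex V had 12.

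The 6 entries matched by name only did not move as 1 group. On day 1, 2 were called higher and 3 lower, beside 25.4% and 27.3% of all entries, and 3 of the 6 values were above 0. On day 10, 2 were called lower, beside 15.8%. The median log2 fold change of the 6 was -0.27 on day 1 and -0.53 on day 10, and 2 of them, UQCRHL and NDUFC2-KCTD14, had few counts. COX7A2L is a factor of respiratory supercomplexes and no subunit of complex IV. It was at 183, 187, 165, 186 and 166 CPM on day 0, 72.2, 83.7, 73.5, 85.1 and 82.7 CPM on day 1, 79.8, 81.8, 76.8, 78.0 and 75.4 CPM on day 2 and 119, 131, 117, 126 and 111 CPM on day 10. Every later library lay below every library of day 0. The log2 fold change was -1.16 ± 0.06 (SE, adjusted p = 9.83e-20) on day 1, -1.18 ± 0.06 (SE, adjusted p = 5.79e-20) on day 2 and -0.55 ± 0.06 (SE, adjusted p = 7.56e-10) on day 10. ATP5S, a factor related to ATP synthase coupling, was lower on day 1, at -0.84 ± 0.19 (SE, adjusted p = 0.000176). UQCRHL, an intronless copy of UQCRH, had between 1 and 18 counts per library and gave -1.84 ± 0.49 (SE, adjusted p = 0.00144) on day 1, and its reads may not be told apart from those of UQCRH, which also fell on that day. ATP5SL, an assembly factor of complex I, gave 0.30 ± 0.12 (SE, adjusted p = 0.0336) on day 1, a call lost with RLE factors, with DESeq2, without day 0 replicate 1, 2, 3 or 5 and without day 1 replicate 3 or 4. The readthrough entry ATP5J2-PTCD1 gave 0.37 ± 0.16 (SE, adjusted p = 0.0443), a call lost with filterByExpr, RLE factors and DESeq2, without day 0 replicate 1, 3 or 5 and without day 1 replicate 2, 3 or 5. NDUFC2-KCTD14 had 98 counts over all libraries and 0 in each library of day 10.

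The promoters of the members were searched for short sequences that nuclear respiratory genes are known to carry. NRF1, the GA-binding protein of the ETS family and YY1 are transcription factors long linked to these genes, and NRF2 acts through antioxidant response elements. RefSeq promoters on GRCh38.p14, from 250 bases before the start to 50 bases after it, were found for 70 of the 86 members and for 15842 protein-coding genes in all. The NRF1 letters, GCGC, any 2 bases and GCGC again, which read the same on both strands, were present in 17 of the 70 (24.3%) and in 1898 of all promoters, or 11.98%. The ETS letters CCGGAAG, on either strand, were present in 19 (27.1%) and in 14.2% of all. The YY1 letters AANATGGCG, on either strand, were present in 16 (22.9%) and in 4.81% of all. The antioxidant element letters TGACNNNGC, on either strand, were present in 10 (14.3%) and in 14.3% of all. The ETS and YY1 letters can share bases where the sites adjoin, and each was counted on its own.

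A match to these letters is a description and no sign that the factor was bound. Members with the NRF1 letters had a median log2 fold change of 0.71 on day 1 and the 53 without them 0.43. On day 2 the medians were 0.59 and 0.59. For the YY1 letters they were 0.58 and 0.45 on day 1 and 0.75 and 0.58 on day 2. For the ETS letters they were 0.50 and 0.45 on day 1, and for the antioxidant element 0.53 and 0.45. In 11 of the 16 members with the YY1 letters the ATG within them was the annotated start codon, which holds for 15.7% of the members' promoters and for 1.84% of all promoters.

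The upstream stretches of 6 promoters are shown 5′ to 3′ on the strand of the gene, with matches in capitals. NDUFA4 and NDUFA4L2 are shown because they changed in opposite directions, and neither held a match in the window. SDHA held 3 NRF1 matches in the stretch shown, and UQCR11 held 1 NRF1 match and 2 ETS matches. In the stretches shown, COX5B held 1 ETS match and NDUFB10 held 1 NRF1 match. The whole windows held 4 NRF1 matches for SDHA and 2 ETS matches for COX5B. For UQCR11 the whole window held 2 NRF1 matches, 2 ETS matches and 1 match to the antioxidant element letters. Each stretch ends before the RefSeq start site of its gene, and the positions are those of NDUFA4 (chr7:10940154-10940303, minus strand), NDUFA4L2 (chr12:57240763-57240912, minus strand), SDHA (chr5:218120-218290, plus strand), UQCR11 (chr19:1605474-1605592, minus strand), COX5B (chr2:97645962-97646056, plus strand) and NDUFB10 (chr16:1959438-1959537, plus strand).
NDUFA4: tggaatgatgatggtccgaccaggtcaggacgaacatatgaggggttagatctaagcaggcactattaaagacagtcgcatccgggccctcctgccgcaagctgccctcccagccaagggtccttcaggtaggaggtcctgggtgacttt
NDUFA4L2: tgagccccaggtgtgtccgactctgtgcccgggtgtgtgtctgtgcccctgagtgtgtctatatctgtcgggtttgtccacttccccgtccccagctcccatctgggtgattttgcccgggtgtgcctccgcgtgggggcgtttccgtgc
SDHA: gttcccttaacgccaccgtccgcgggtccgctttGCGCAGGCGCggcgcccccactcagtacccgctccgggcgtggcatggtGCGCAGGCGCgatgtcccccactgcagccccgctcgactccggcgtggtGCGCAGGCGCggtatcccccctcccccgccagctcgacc
UQCR11: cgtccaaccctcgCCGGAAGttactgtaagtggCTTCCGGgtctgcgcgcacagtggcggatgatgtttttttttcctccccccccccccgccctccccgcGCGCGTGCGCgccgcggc
COX5B: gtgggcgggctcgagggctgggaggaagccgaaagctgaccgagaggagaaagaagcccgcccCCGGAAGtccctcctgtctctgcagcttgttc
NDUFB10: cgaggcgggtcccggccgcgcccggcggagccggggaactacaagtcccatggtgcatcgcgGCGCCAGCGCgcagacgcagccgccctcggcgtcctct

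Of these genes, SDHA gave a log2 fold change of 0.69 on day 2, UQCR11 0.98 ± 0.08 (SE, adjusted p = 8.18e-14), COX5B 0.84 ± 0.06 (SE, adjusted p = 7.26e-15) and NDUFB10 1.13 ± 0.07 (SE, adjusted p = 3.02e-17). The 30 bases around the YY1 letters of 3 members in which the ATG is the start codon are shown in the same way. They lie at chr5:1801405-1801434 on the plus strand for NDUFS6, at chr22:29767386-29767415 on the plus strand for UQCR10 and at chr3:48609604-48609633 on the minus strand for UQCRC1.
NDUFS6: ccagcggcgcAAAATGGCGgcggcgatgac
UQCR10: actgtgaagaAACATGGCGgccgcgacgtt
UQCRC1: ctgcagctggAAGATGGCGgcgtccgtggt

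The log2 fold changes of NDUFS6, UQCR10 and UQCRC1 on day 2 were 0.88 ± 0.06 (SE, adjusted p = 2.28e-15), 0.92 ± 0.10 (SE, adjusted p = 8.16e-11) and 0.81 ± 0.10 (SE, adjusted p = 1.39e-08).

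The subunits that mitochondrial DNA encodes went the other way. Of the 13 such transcripts, 13 were lower on day 1, 12 on day 2, 13 on days 4 and 6, 10 on day 8 and 8 on day 10. Of all entries, 27.3%, 24.4%, 20.1%, 17.0%, 18.6% and 15.8% were lower on days 1, 2, 4, 6, 8 and 10, and between 16.1% and 25.4% were higher. On each of the 6 days 0 of the 13 transcripts were higher in edgeR, with 0 at an unadjusted p under 0.05 and 0 in DESeq2. Their median log2 fold change was -0.79 on day 1, -0.60 on day 2 and -0.40 on day 10. MT-CYB, the cytochrome b of complex III, was at 8809.8, 10420.0, 11892, 9739.9 and 8130.4 CPM on day 0 and 5068, 4142, 3687, 4227 and 3721 CPM on day 1. The 2 groups of libraries did not overlap, and the change was -1.23 ± 0.11 (SE, adjusted p = 2.12e-13). MT-CO1, the catalytic subunit of complex IV, gave the smallest change of the 13 on day 1, -0.44 ± 0.10 (SE, adjusted p = 0.000274), with overlap between the days, and MT-CO1 was the transcript not called on day 2 (-0.16, adjusted p = 0.2). MT-ND1 of complex I was still lower on day 10, at -1.04 ± 0.12 (SE, adjusted p = 1.5e-09), while MT-ND4 of the same complex gave -0.14 (adjusted p = 0.309).

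**Figure D5:**
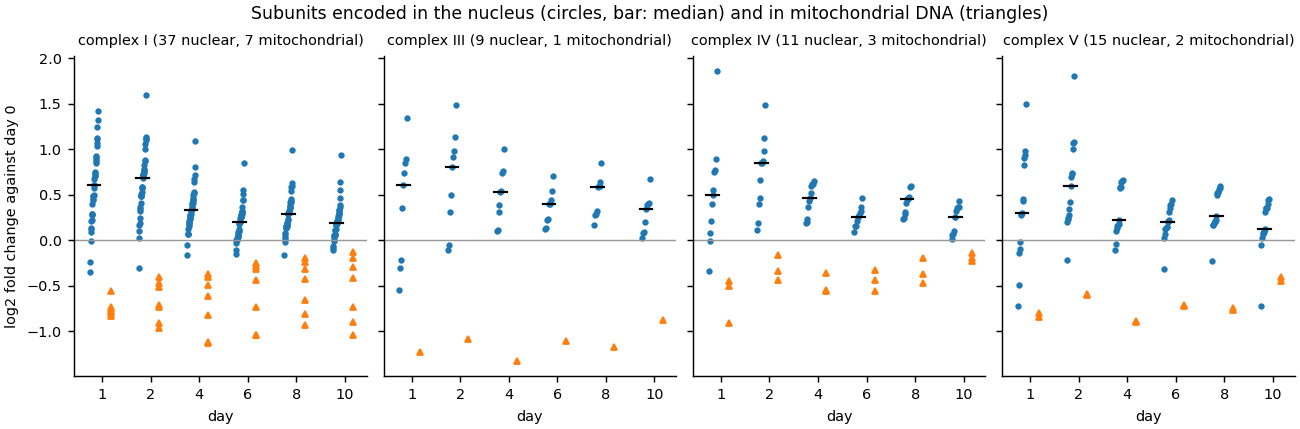
Log2 fold change against day 0 of single subunits encoded in the nucleus (circles, the bar is their median) and in mitochondrial DNA (triangles) for complexes I, III, IV and V on each day; the tissue-restricted isoforms of complex IV are left out. All triangles lie below 0 on all days, between -1.33 and -0.14, whereas the median of the nuclear subunits lies above 0 in each complex. Days are drawn at equal distances.

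Cytochrome c itself (CYCS), the nuclear-encoded carrier between complexes III and IV, was higher than on day 0 on day 2 and lower from day 4 onwards. It was at 222, 251, 251, 276 and 267 CPM on day 0, 245, 265, 291, 273 and 267 CPM on day 1, 352, 355, 352, 352 and 358 CPM on day 2 and 188, 209.8, 206, 209 and 211 CPM on day 10. It lay above day 0 in all libraries of day 2 and below day 0 in all libraries of day 10. The log2 fold change was 0.08 ± 0.05 (SE, adjusted p = 0.184) on day 1, 0.48 ± 0.05 (SE, adjusted p = 1.27e-10) on day 2, -0.61 ± 0.05 (SE, adjusted p = 1.62e-12) on day 6 and -0.31 ± 0.05 (SE, adjusted p = 9.4e-06) on day 10.

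Of 54 factors that assemble the complexes, 24 (44.4%) were higher and 10 (18.5%) lower on day 1. All entries gave 25.4% and 27.3%, and the 12301 with enough counts 36.1% and 34.8%. On day 10, 11 (20.4%) of the assembly factors were higher and 9 (16.7%) lower, and the 9 became 5 without scaling factors. All entries gave 16.1% and 15.8% on that day, and those with enough counts 23.1% and 21.6%. COA6, which delivers copper to complex IV, was the highest of them on day 1, at 1.48 ± 0.09 (SE, adjusted p = 3.77e-18). SDHAF4, an assembly factor of complex II, was the lowest, at -2.74 ± 0.21 (SE, adjusted p = 1.47e-14). On day 10 ACAD9, an assembly factor of complex I, was the highest, at 1.11 ± 0.14 (SE, adjusted p = 2.52e-08), and SCO2, a copper chaperone of complex IV, the lowest, at -0.96 ± 0.14 (SE, adjusted p = 2.93e-07). The 3 further subunits or regulators of complex V that the naming rule did not cover, USMG5, C14orf2 and the inhibitor ATPIF1, were all higher on days 1 and 2. On day 1 USMG5 gave 0.69 ± 0.08 (SE, adjusted p = 6.48e-10) and ATPIF1 0.36 ± 0.06 (SE, adjusted p = 5.76e-07), and on day 10 they gave 0.34 (adjusted p = 0.000967) and -0.02 (adjusted p = 0.825).

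The 12 regulators examined act on nuclear respiratory genes or, as POLRMT, TFAM, TFB1M and TFB2M do, on mitochondrial DNA or its RNA. On day 1, 3 of the regulators were higher and 3 lower, or 25.0% each. All entries gave 25.4% and 27.3%, and the 12301 with enough counts 36.1% and 34.8%. On day 10, 3 regulators were higher and 2 lower, or 25.0% and 16.7%. All entries gave 16.1% and 15.8% on that day, and those with enough counts 23.1% and 21.6%. The mitochondrial RNA polymerase POLRMT had the highest value on day 1, at 0.96 ± 0.06 (SE, adjusted p = 1.1e-16), and was back at -0.02 on day 2. PPARGC1A, a coactivator of mitochondrial genes, had between 0 and 5 counts per library, and its call as lower on day 1 (-2.72) rests on 9 counts on day 0 and 1 on day 1. That call was lost with the replicate number as a block, without scaling factors, with only these 2 days fitted, with DESeq2 and in at least 1 fit with a library left out (-1.86). TFB1M, a mitochondrial rRNA methyltransferase, gave 0.44 ± 0.13 (SE, adjusted p = 0.00682) on day 10. PPRC1, a coactivator related to PPARGC1A, gave -0.69 ± 0.06 (SE, adjusted p = 6.59e-13) on day 10. Without scaling factors 6 regulators were higher on day 1.

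The count table assigns part of each symbol's reads to transcript classes other than protein-coding, and this share changed over time. On day 0, 83.7% ± 1.24 (SD, n = 5) of the counts under the members' symbols were in protein-coding entries, and on day 2 the share was 87.4% ± 0.385. Retained-intron transcripts held 5.94% ± 0.797 on day 0, 3.54% ± 0.419 on day 2 and 4.30% ± 0.346 on day 10. For all other symbols the retained-intron share was 7.61% on day 0, 5.38% on day 2 and 6.81% on day 10. The part of this shift in the rise of the protein-coding entries was not tested. The symbols with the smallest share of their counts in the protein-coding entry were ATP5F1 (10.2%), COX6C (19.0%), NDUFS7 (40.5%), UQCRB (45.7%) and NDUFA7 (46.2%), and for these the values above rest on the smaller part of the reads.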

How the data were processed

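RNA of 35 RPMI-8226 libraries, 5 for each of 7 days, was analysed. Per the study's methods and the submitters' processing notes, the authors quantified reads against GENCODE transcripts on GRCh38.p12 with Kallisto 0.44.0, summed them with tximport in R 3.5.0 and tested them with DESeq2 1.25.8. The deposited values are estimated counts, adjusted for transcript length and rounded to whole numbers, with 1 entry per symbol and transcript class, so that reads shared by copies or transcript classes were divided by estimation. Library totals were 6519392 to 10962890 counts. Their number limits the precision of low entries such as COX8C.

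Protein-coding entries with any count (17999) were fitted in edgeR 4.0.16 (R 4.3.3) with TMM factors, day as a factor over all 35 libraries and the two-sided quasi-likelihood test. Benjamini-Hochberg adjustment ran over all 17999 entries, separately in each of 8 comparisons, and entries at an adjusted p of 0.05 or less were called. The SE is the log2 fold change divided by the square root of F. CPM use TMM-scaled library sizes, and complex means use log2 CPM with a prior count of 2. The script was tested on simulated data. A floor of 3 counts covers only the counting error of the group without counts.

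Named genes were those with the 3 highest and 3 lowest called changes on each day, members past 2-fold, fixed core subunits, restricted isoforms, entries matched by name only, the extremes of each other list on days 1 and 10, and members called against the median of their complex. ATP5G2 was named because it was called against the median of its complex on day 2, and CYCS as the only gene of its list. Other genes named in passing (among them ATP5G3, UQCRH, UQCR11, COX5B and UQCR10) were chosen after their values were seen. The promoter examples were also picked at that stage, though some of them meet the rules above. The members and lists were chosen with earlier results of these data known. Alternatives were RLE factors, no factors, filterByExpr, DESeq2 1.42.0, the 2 days compared only, each library left out, the replicate number as a block, the mean in place of the median, and NDUFA4 counted in complex I.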

Additional observations from a re-analysis of the deposited data

Results flagged for a closer look

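In groups of 5 libraries, 20 of the 462 groups tested (4.33%) had a highest or lowest library whose gap to its nearest neighbour took up more than 0.71 of the group's range (Dixon's 95% value), and chance alone gives about 5%. No explanation was tested.

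On complex II and III subunits, SDHB stood at 107 CPM in replicate 4 of day 2, with the others at 122 to 126 CPM, and at 108 CPM in replicate 5 of day 6, with the others at 93.1 to 97.0 CPM. CYC1 stood at 205 CPM in replicate 5 of day 6 (others 170 to 179) and at 199 CPM in replicate 5 of day 10 (others 165 to 171). UQCRFS1 was at 50.9 CPM in replicate 1 of day 1, with the others at 55.4 to 56.1 CPM.

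On complex IV and V subunits, COX4I1 was at 243 CPM in replicate 1 of day 4 (others 213 to 221), COX5A at 267 CPM in replicate 1 of day 8 (others 311 to 325) and COX6C at 24.8 CPM in replicate 2 of day 6 (others 19.5 to 21.0). NDUFA4 was at 79.1 CPM in replicate 5 of day 4 (others 94.1 to 99.3). NDUFA4L2 was at 7.18 CPM in replicate 2 of day 2 (others 3.88 to 4.40). ATP5B was at 617 CPM in replicate 3 of day 0 (others 698 to 725).

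The readthrough entry NDUFC2-KCTD14 was at 2.20 CPM in replicate 4 of day 6 and at 2.40 CPM in replicate 4 of day 8, with the others at or below 0.493 CPM. SDHAF4 was at 12.9 CPM in replicate 3 of day 6, MT-ND4 at 8.94e+03 CPM in replicate 5 of day 2, CYCS at 188 CPM in replicate 1 of day 10 and PPARGC1A at 0.157 CPM in replicate 2 of day 1, where the others had 0. The mean over complex I was 0.13 in replicate 1 of day 10, with the others at 0.22 to 0.24. The members' share of protein-coding counts was 0.700% in replicate 3 of day 0 (others 0.757% to 0.777%) and 0.900% in replicate 1 of day 6 (others 0.944% to 0.953%).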

How the results depend on the processing

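DESeq2 and RLE factors kept the counts of members called within 1.5 times on every day. Without scaling factors the median log2 change of the entries with enough counts was 0.12, 0.13 and 0.07 (days 1, 2 and 10), beside 0.01, 0.00 and 0.00 with them. In that setting 3 members were lower on day 2, 5 assembly factors were lower on day 10, the regulators had 6 higher on day 1, 5 on day 2 and 5 on day 10, and 1 regulator was lower on day 2. Without factors the medians on days 1, 2 and 10 were 0.71, 0.81 and 0.26 for complex I and 0.54, 0.55 and 0.21 for complex II. On days 1 and 2 they were 0.72 and 0.93 for complex III, 0.51 and 0.79 for complex IV and 0.41 and 0.72 for complex V. The mean in place of the median gave 0.26 for complex II on day 10, 0.41 and 0.66 for complex III on days 1 and 2, and -0.034, 0.36 and -0.0056 for complex IV on days 1, 2 and 10, where the low isoforms enter. With filterByExpr complex IV had 0.47 and 0.81, and with NDUFA4 in complex I it had 0.30 and 0.56. Members higher on day 10 than on day 2 numbered 5 with filterByExpr and 6 with these 2 days fitted alone.

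With 1 library left out, members higher ranged from 56 to 59 (day 1), 63 to 67 (day 2), 52 to 63 (day 4), 38 to 46 (day 6), 51 to 68 (day 8, with 68 without day 8 replicate 1) and 36 to 41 (day 10). Members lower ranged from 3 (without day 2 replicate 4, which lost NDUFS4, ATP5G2 and ATP5S) to 7 on day 2 and from 2 (without day 10 replicate 5, which lost ATP5F1 and ATP5S) to 4 on day 10. Regulators higher on day 10 reached 5 without day 0 replicate 2. Medians ranged from 0.11 to 0.19 for complex II on day 10, from 0.28 (without day 0 replicate 3) to 0.46 for complex IV on day 1, from 0.70 to 0.85 for complex III on day 2, and from 0.11 (without day 0 replicate 5) to 0.29 (without day 0 replicate 2) for complex IV on day 10. The cause of these changes was not tested.

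For same-numbered libraries of different days, correlations of their deviations ranged from -0.123 to 0.136, and 22 of 105 comparisons were best with the own number. Such correlations cannot decide whether these libraries came from the same subculture. The main fit used no pairing. With a replicate block the members higher numbered 59, 67, 59 and 44 for days 1, 2, 4 and 6. Of the genes and counts refitted, the block ended only the call of PPARGC1A on day 1 (-2.74).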
